A study of Homo sapiens with 19 samples.

Results

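The ERRα binding maps of parental SKBr3 cells (pSKBr3) and of serum-starved, vehicle-treated SKBr3 cells were compared. SKBr3 is an established human breast cancer cell line with amplified ERBB2, and the comparison asks how far ERRα occupancy in the same parental line differs between untreated and starved culture. Each map is 1 deposited list of ChIP-seq peaks (regions where reads from the ERRα immunoprecipitate exceeded those of the input DNA), made from 2 pooled ChIP libraries and 1 input library, so 6 of the 19 samples of the series enter the comparison. Peaks with at least 1 bp in common were joined into sites, and a site counted as shared when both lists contributed a peak. The 22539 pSKBr3 peaks and 32183 vehicle peaks, of 264623 peaks in all 8 lists of the series, gave 39048 sites. Of these, 15181 were shared (38.9%), 6921 were found in pSKBr3 only (17.7%) and 16946 on vehicle only (43.4%).

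The pSKBr3 cells are labelled as the lapatinib-sensitive parental cells and as untreated. They were grown in DMEM with 10% FBS, and the labels do not say whether they were also starved. The vehicle cells were starved of serum for 24 h and given PBS. The remaining SKBr3 lists come from cells starved for 24 h and then exposed to 100 μM EGF or 100 μM HRG (heregulin, a ligand of the ERBB3 and ERBB4 receptors), and from LRSKBr3 cells, a lapatinib-resistant derivative kept in 2 μM lapatinib. BT-474, a further breast cancer line with amplified ERBB2, was starved and treated in the same way. The pSKBr3 and vehicle lists belong to separate experiments with their own ChIP and input libraries, the first paired with LRSKBr3 and the second with EGF and HRG. Culture state, experiment and library can therefore not be told apart, and with 1 list per state no difference between the states was tested. Peak lists hold no expression, so the luminal identity of the cells could not be checked with marker transcripts. How deeply each list was sequenced is unknown.

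ERRα (ESRRA) is an orphan nuclear receptor that binds as a monomer or dimer to an extended recognition word, the ERR response element (ERRE), and works with coactivators of the PGC-1 family rather than with a known natural hormone. Its best known targets are nuclear genes of mitochondrial respiration, the tricarboxylic acid (TCA) cycle and fatty acid oxidation. AP-1 (dimers of FOS and JUN proteins) and ETS factors are transcription factors downstream of growth factor receptors that bind words of their own, the former mostly at enhancers and the latter often at promoters.

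The sequences below show a binding word at the centre of strong sites of each class, from GRCh37 (hg19), plus strand, with the word and 40 bases to each side. Capitals mark the ERRE word TCAAGGTCA or its reverse complement TGACCTTGA, the AP-1 word TGACTCA or TGAGTCA, or the ETS word CCGGAAG or its reverse complement CTTCCGG, each searched on both strands. Across all 39048 sites, 7.11% held the ERRE word within 100 bp of the centre, 6.14% the AP-1 word and 2.56% the ETS word. The shared pair stands for ERREs bound in both states.
MFSD4A, 4759 bp from the site centre, intergenic, chr1:205533414-205533502: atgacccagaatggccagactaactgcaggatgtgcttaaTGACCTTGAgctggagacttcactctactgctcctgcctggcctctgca
SNX29, in an intron, chr16:12281829-12281917: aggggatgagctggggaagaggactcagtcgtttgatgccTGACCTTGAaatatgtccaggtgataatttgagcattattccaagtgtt
The next site was called in pSKBr3 and not on vehicle, and is intergenic.
DYNC1LI1 as the nearest start, chr3:32624727-32624815: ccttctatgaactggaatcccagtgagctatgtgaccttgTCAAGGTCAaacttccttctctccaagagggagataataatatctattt
The following ERREs were called on vehicle and not in pSKBr3, both intergenic and far from a gene. Neither site was called on HRG, and both lie on chromosome 7. There 2.64% of vehicle-only sites held the ERRE, against 6.72% of those elsewhere.
SEMA3C, 246069 bp away, chr7:80797673-80797761: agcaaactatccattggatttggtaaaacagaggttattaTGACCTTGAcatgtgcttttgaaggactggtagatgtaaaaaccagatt
NXPH1, 75398 bp away, chr7:8397831-8397919: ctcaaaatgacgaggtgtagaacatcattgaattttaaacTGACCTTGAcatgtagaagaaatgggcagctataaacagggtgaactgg
AP-1 words stood at sites called on vehicle, EGF and HRG but in neither pSKBr3 nor LRSKBr3.
MECOM, in an intron, chr3:169148810-169148896: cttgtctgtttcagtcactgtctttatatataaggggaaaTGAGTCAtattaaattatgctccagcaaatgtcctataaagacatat
SOX9, 585688 bp away, intergenic, chr17:69531346-69531432: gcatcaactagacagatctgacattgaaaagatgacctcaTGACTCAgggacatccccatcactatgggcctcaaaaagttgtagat
ETS words stood at promoters called in pSKBr3 and not on vehicle.
PRDX5 promoter, chr11:64085491-64085577: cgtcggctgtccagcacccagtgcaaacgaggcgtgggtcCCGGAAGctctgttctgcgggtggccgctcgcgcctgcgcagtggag
YWHAG promoter, chr7:75988428-75988514: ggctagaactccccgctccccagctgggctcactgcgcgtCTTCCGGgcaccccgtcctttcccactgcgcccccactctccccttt

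ERRα was called at most pSKBr3 peaks on vehicle as well. Of the pSKBr3 peaks, 69.3% overlapped a vehicle peak (95% Wilson interval 68.7 to 69.9), and of the vehicle peaks, 47.3% overlapped a pSKBr3 peak (46.8 to 47.9). The vehicle list covers 1.88% of the genome and the pSKBr3 list 1.04%, which is no baseline for the overlap of peaks over 1 kb wide. Wilson intervals here and below cover counting error over sites and not the spread between cultures. Among shared pSKBr3 peaks the median overlap was 1194 bp and the median distance between centres 73 bp.

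Strong binding was common to both states. Peak scores are the negative log10 of the P value times 10. They run from 50 upwards and were ranked only within each list. In the strongest decile by score, 97.7% of pSKBr3 peaks (97.0 to 98.3) and 99.3% of vehicle peaks (98.9 to 99.5) were shared. In the weakest decile these shares were 39.4% and 15.7%. All 1000 strongest vehicle peaks were shared, as were 987 of the 1000 strongest pSKBr3 peaks. The unshared peaks thus sat low in their own lists, at a median percentile of 28.4 in pSKBr3 and 32.6 on vehicle against 61.1 and 73.4 for shared peaks. These counts depend on list size and threshold: with the vehicle list reduced to its 22539 strongest peaks, 9112 sites were vehicle only, and at P at most 1e-10 there were 10003 shared, 3791 pSKBr3-only and 10216 vehicle-only sites. With centres required to lie within 100 bp, 41.2% of pSKBr3 and 28.9% of vehicle peaks were shared. Few peaks lay at the border of the definition: 15 shared pSKBr3 peaks overlapped by less than 100 bp, and 38 unshared pSKBr3 peaks and 26 unshared vehicle peaks lay within 100 bp of a peak of the other list.

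**Figure D1:**
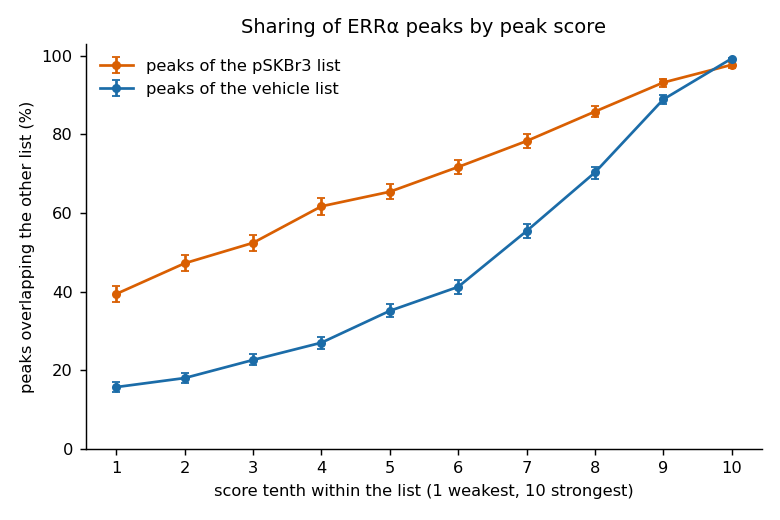
The y axis gives the percent of peaks that overlap a peak of the other list and the x axis the score decile within the list, from weakest to strongest, with 95% Wilson intervals. Sharing rises from 39.4% to 97.7% in the pSKBr3 list and from 15.7% to 99.3% in the vehicle list.

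The strongest shared sites, ranked by the lower of their score percentiles in both lists, included promoters of respiratory genes. Scores pile up at the top, 11 sites were tied with or above the sixth, and ties were ordered by width. The promoters among the first by this rank were those of CYCS (cytochrome c), NDUFA6 and NDUFS3 (subunits of respiratory complex I), MRS2 (a mitochondrial magnesium channel), NMNAT1 (nuclear NAD+ synthesis) and NRSN2. NDUFS3 scored 3100 in pSKBr3 and 3120.21 on vehicle, with the centre of the site 87 bp from the start. CYCS scored 3100 and 3133.13, at 257 bp. The strongest shared sites away from promoters lay in introns of SYT12 and AOPEP and in a coding exon of COMTD1. All of these sites were also called in the EGF, HRG, LRSKBr3 and 3 BT-474 lists. ERRα also bound its own gene in both states: a promoter site of ESRRA with its centre 705 bp from a start (chr11:64071380-64073148 in pSKBr3) scored 3100 in each list and held the ERRE and AP-1 words.

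Single-list binding split by position. Of the sites found in pSKBr3 only, 30.6% lay within 1 kb of the start of a protein-coding gene (29.6 to 31.7), called a promoter here, against 20.1% of shared sites (19.5 to 20.8), 3.96% of vehicle-only sites (3.68 to 4.26) and 15.0% of all sites. Vehicle-only sites were mostly far from a start. Their median distance to a start was 55.2 kb, compared with 17.3 kb for shared and 9.37 kb for pSKBr3-only sites. More than 20 kb away were 70.9% of vehicle-only, 47.4% of shared and 37.7% of pSKBr3-only sites. Of all vehicle-only sites, 45.5% lay in introns and 47.9% in intergenic sequence, against 39.4% and 37.7% of shared and 31.7% and 34.5% of pSKBr3-only sites. Coding exons and UTRs each held under 2% of every class.

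Base composition moved with the classes as well. The central window, 100 bp to each side of the centre, held 55.4% GC in pSKBr3-only sites (SD 11.6 over sites), 50.5% in shared sites (SD 9.99) and 42.0% in vehicle-only sites (SD 7.55). The order was the same away from promoters, at 50.9%, 48.0% and 41.7%, and in promoters, at 65.7%, 60.2% and 48.2%. It also appeared, though smaller, in flanking windows 2 kb to each side, at 47.4%, 45.8% and 40.9%. Among all sites under 40% GC, 70.6% were vehicle only and 7.03% pSKBr3 only. At 60% GC or more these shares were 3.98% and 46.4%. The lists as wholes differed in the same way, with a mean of 52.4% GC in pSKBr3, 50% in LRSKBr3, 50.5% on HRG, 46.4% on EGF and 45.8% on vehicle. GC-rich and GC-poor DNA can be recovered unequally between libraries, and its part in the classes was not tested.

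**Figure D2:**
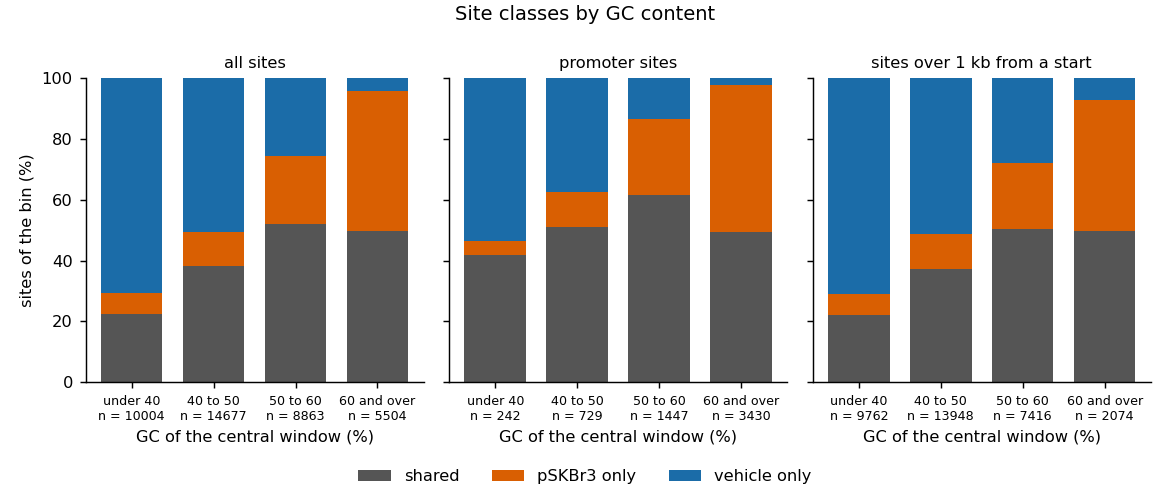
Stacked bars give the percent of sites in each class, by GC content within 100 bp of the centre, for all sites, promoter sites and sites over 1 kb from a start, with the number of sites under each bar. Vehicle-only sites fall from 70.6% of the bin under 40% GC to 3.98% of the bin at 60% or more, and pSKBr3-only sites rise from 7.03% to 46.4%.

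The ERRE was present in all classes, most often in shared sites. It was found at 8.89% of shared sites (8.44 to 9.35), 5.81% of pSKBr3-only sites (5.28 to 6.38) and 6.04% of vehicle-only sites (5.69 to 6.41). In the flanks it occurred in 0.389%, 0.361% and 0.277% of windows, so that each class held the word at its centre at least 16.1 times as often as beside it. The ERR core word AAGGTCA, which is part of the ERRE word, was found at 29.5%, 18.8% and 21.3%, and at 24.0% of all sites. The single-list classes did not differ beyond counting error, at −0.234 percentage points for pSKBr3-only minus vehicle-only sites (−0.877 to 0.439), nor with lists of equal size, at 0.654 (−0.0508 to 1.36). At P at most 1e-10 pSKBr3-only sites were behind, at −1.78 (−2.62 to −0.891), and also without chromosome 7, at −0.788 (−1.49 to −0.0521). Away from promoters they were ahead: the ERRE stood at 10.5% of shared, 7.85% of pSKBr3-only (7.13 to 8.65) and 6.14% of vehicle-only sites (5.79 to 6.52). Within each bin of GC content, distal pSKBr3-only sites also held it more often than distal vehicle-only sites, for instance 8.97% against 4.07% between 50% and 60% GC, although under 40% GC and at 60% or more the intervals overlapped.

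Promoters called in pSKBr3 alone carried few ERR words. The core word stood at 5.66% of them (4.75 to 6.72), against 3.77% of their flanks, whereas 13.5% of shared promoters (12.4 to 14.8) and 15.1% of vehicle-only promoters (12.5 to 18.0) held it. Of the words of general promoter factors, the ETS word was about as frequent in these promoters as in shared ones, and the GC box and AP-2 words were more frequent. Against 11.6% of all promoter sites, the ETS word stood at 13.5% of pSKBr3-only promoters (12.1 to 15.0) and 12% of shared promoters (10.9 to 13.2), but at 3.73% of vehicle-only promoters (2.54 to 5.44). The GC box GGGGCGGGG, bound by SP factors, was found at 9.48%, 6.09% and 2.24% (all promoter sites 6.87%), and the AP-2 word GCCNNNGGC at 25.5%, 18.2% and 9.69% (all promoter sites 19.8%). These words are rich in G and C. The promoters of the classes differed in GC content as given above, and its part in the shares was not tested. Over all sites, the GC box was found at 1.43% and the AP-2 word at 9.83%.

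Over all sites, AP-1 words were most frequent in the vehicle-only class. They stood at 7% of vehicle-only sites (6.63 to 7.40), 5.96% of shared sites (5.60 to 6.35) and 4.39% of pSKBr3-only sites (3.93 to 4.90), with 3.12%, 3.41% and 3.01% in the flanks. Over distal sites alone the shares were 7.07%, 6.95% and 5.40%, so that vehicle-only and shared sites no longer differed beyond counting error. The word TGTTTAC of the pioneer factor FOXA followed the same order, at 5.52% of vehicle-only, 2.77% of pSKBr3-only and 4.55% of all sites, but its flanks ran the same way, at 3.36% and 2.09% for the single-list classes. So did the word AGATAA, bound by GATA factors, at 15.2%, 6.59% and 11.3%, but it was as frequent in the flanks of vehicle-only sites (15.4%). The word of the serum response factor SRF was found at 1.42% of vehicle-only, 0.607% of pSKBr3-only and 1.19% of all sites, with 1.35% and 0.983% in the flanks.

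**Figure D3:**
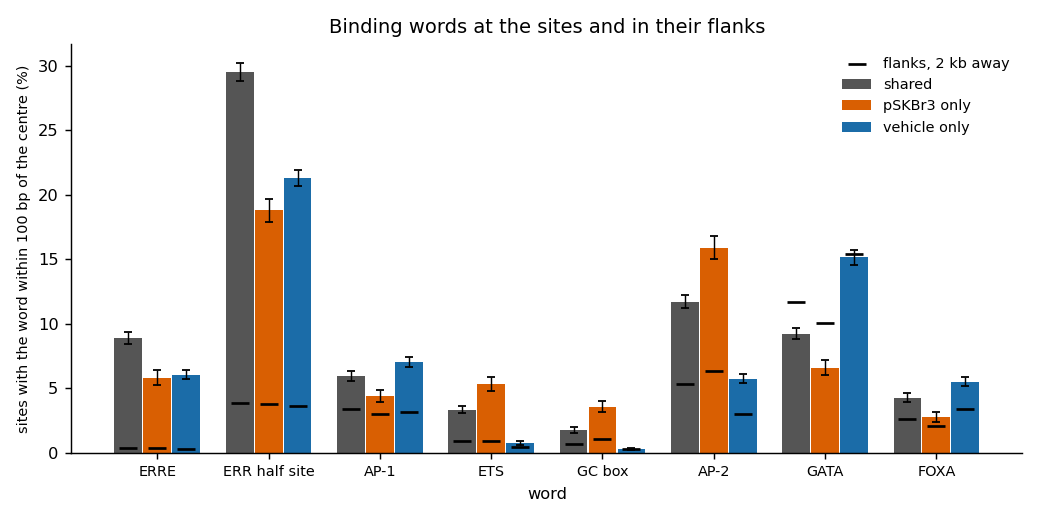
Bars give the percent of sites of each class with a word within 100 bp of the centre, with 95% Wilson intervals, and black dashes the percent of windows of equal length 2 kb to each side. The ERRE stands far above the flanks in every class (8.89%, 5.81% and 6.04%), the ETS and GC box words are most frequent in pSKBr3-only sites, and the GATA word of vehicle-only sites (15.2%) lies at the level of the flanks.

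The single-list sites were next looked up in the lists that neither state contributed to. These lists hold 39777 peaks in LRSKBr3, 37195 on HRG and 32567 on EGF. Of all sites, 67.9% were called in LRSKBr3, 57.2% on HRG and 59.9% on EGF. Sites found in pSKBr3 only were called at 69.2% in LRSKBr3 (68.1 to 70.2), 58.2% on HRG (57.0 to 59.4) and 21.4% on EGF (20.4 to 22.4). Sites found on vehicle only were called at 50% on EGF (49.2 to 50.7), 42.8% in LRSKBr3 (42.0 to 43.5) and 29.3% on HRG (28.6 to 30). The pSKBr3-only sites were thus called about as often as all sites in LRSKBr3 and on HRG and less often on EGF, and the vehicle-only sites less often than all sites in each of these lists. Shared sites were called at 88.0% to 95.3% in these lists. In BT-474 cells on vehicle, 64.6% of shared, 21.9% of pSKBr3-only and 30.3% of vehicle-only sites were called, against 42.2% of all sites. For BT-474 on EGF these shares were 52.0%, 12.4% and 23.3% (all sites 32.5%), and on HRG 64.2%, 20.3% and 35.7% (all sites 44.1%).

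Base composition moved with this recovery too. The pSKBr3-only sites called on HRG had a mean GC of 58.4% and those not called 51.2%. Within sites of 60% GC or more, pSKBr3-only sites were called at 85.2% in LRSKBr3, 73.1% on HRG and 16.4% on EGF, and vehicle-only sites of that GC content, 219 in all, at 79.9%, 75.3% and 55.7%. Under 40% GC, pSKBr3-only sites were called at 29.2%, 24.2% and 15.6%. Vehicle-only sites under 40% GC were called at 28.8%, 17.3% and 44%. The part of GC content in these shares was not tested.

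**Figure D4:**
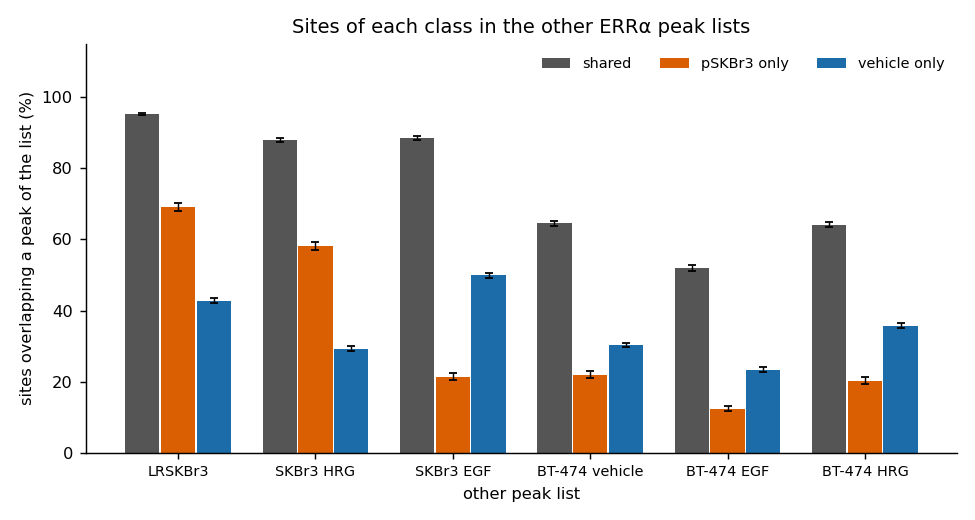
Bars give the percent of sites of each class that overlap a peak of each other ERRα list, with 95% Wilson intervals. Sites in pSKBr3 only reach 69.2% in LRSKBr3 and 58.2% on HRG but 21.4% on EGF, and vehicle-only sites reach 50% on EGF and 29.3% on HRG.

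By combination of lists, the largest group of pSKBr3-only sites was that called also on HRG and in LRSKBr3 but not on EGF. It held 2387 sites (34.5%), with 60.6% GC and 46.3% promoters (44.3 to 48.3). The same combination held 6.36% of shared and 3.27% of vehicle-only sites. A further 1110 pSKBr3-only sites (16.0%) were called in pSKBr3 and LRSKBr3 and in none of the lists of starved SKBr3 cells. Of these, 39.5% were promoters (36.6 to 42.4), 6.13% held the ERRE (4.86 to 7.69) and 2.88% the AP-1 word (2.05 to 4.04), near the 3.38% of its flanks. The strongest were in the vicinity of CYTH1, PTPN1, RIPOR3, RNF139, UBE2V1 and DLG5, and all 6 were called in every BT-474 list. Only the RNF139 site was a promoter, and its pSKBr3 score was 1611.35. Called in LRSKBr3 but on neither EGF nor HRG were also 3.36% of shared and 8.77% of vehicle-only sites.

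The share of sites with an AP-1 word varied with the combination of lists. Called on EGF and HRG but not in LRSKBr3 were 1.8% of shared and 1.55% of pSKBr3-only sites. On vehicle, EGF and HRG but in neither pSKBr3 nor LRSKBr3, 930 sites were called (5.49% of vehicle-only sites). The AP-1 word stood at 194 of them, 20.9% (18.4 to 23.6), against 2.96% of their flanks. Sites called on EGF and HRG but not in LRSKBr3 held it at 13.9% if shared (10.3 to 18.5) and at 10.3% if pSKBr3 only (5.84 to 17.5), and pSKBr3-only sites called in all 3 lists at 10.4% (8.73 to 12.3). Vehicle-only sites called in all 3 lists held it at 11.7% (10.6 to 12.8). On EGF alone, 9.02% of vehicle-only sites (7.92 to 10.3) and 11% of pSKBr3-only sites (5.88 to 19.6) held it, and on EGF and in LRSKBr3 but not on HRG, 6.18% and 4.61%. Shared sites called in all 3 lists held it at 6.54% (6.11 to 7). On HRG and in LRSKBr3 but not on EGF, it stood at 1.66% of shared, 2.93% of pSKBr3-only and 2.71% of vehicle-only sites. The flanks of these groups held it at 3.63%, 2.97% and 2.89%. In the 930 sites the ERRE stood at 6.56% (5.14 to 8.34). Promoters made up 3.98%. The strongest sites of this group were nearest to MECOM (at 2 places), PAMR1, MCHR2, IRX2 and SH3RF3, and the stronger MECOM site is the one printed above, with a vehicle score of 684.01. Sites called on vehicle and in no further SKBr3-derived list were the most numerous, 6226 (36.7%), and held few words: 3.10% had the ERRE and 3.52% the AP-1 word, at a mean GC of 39.4%. The 1548 pSKBr3-only sites of that kind (22.4%) had 4.91% and 2.84%, at 47.2% GC and a median score percentile of 14.1. Of shared sites, 1.34% were called in none of the 3 lists.

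Part of the single-list binding was concentrated on a few chromosomes. Chromosome 7 held 10.9% of vehicle peaks, compared with 6.46% of pSKBr3 peaks and 5.40% to 7.12% in the 7 lists other than vehicle. On it, 2805 sites were vehicle only, 16.6% of that class, and 80.3% of the vehicle sites of the chromosome were unshared. The region from 10 to 20 Mb held 584 vehicle peaks, 63 pSKBr3 peaks, 216 EGF peaks, 134 HRG peaks and 91 LRSKBr3 peaks. The vehicle-only sites of chromosome 7 were broad, with a median of 1707 bp against 1246 bp elsewhere. They were also poor in GC (38.1% against 42.8%) and in the ERRE (2.64% against 6.72%), and were called less often on EGF (27.7% against 54.4%) and in LRSKBr3 (13.6% against 48.6%). For pSKBr3, chromosomes 7 and 20 both stood out. On chromosome 7, 749 sites were pSKBr3 only (10.8% of that class) and 52.1% of its pSKBr3 sites (49.5 to 54.7) were not shared. On chromosome 20 there were 552 such sites (7.98%), 57.2% of its pSKBr3 sites (54.1 to 60.3), and 58.5% of its vehicle sites were unshared too. Leaving out chromosomes 7, 20 and Y, 28.5% of pSKBr3 sites and 49.0% of vehicle sites were unshared.

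**Figure D5:**
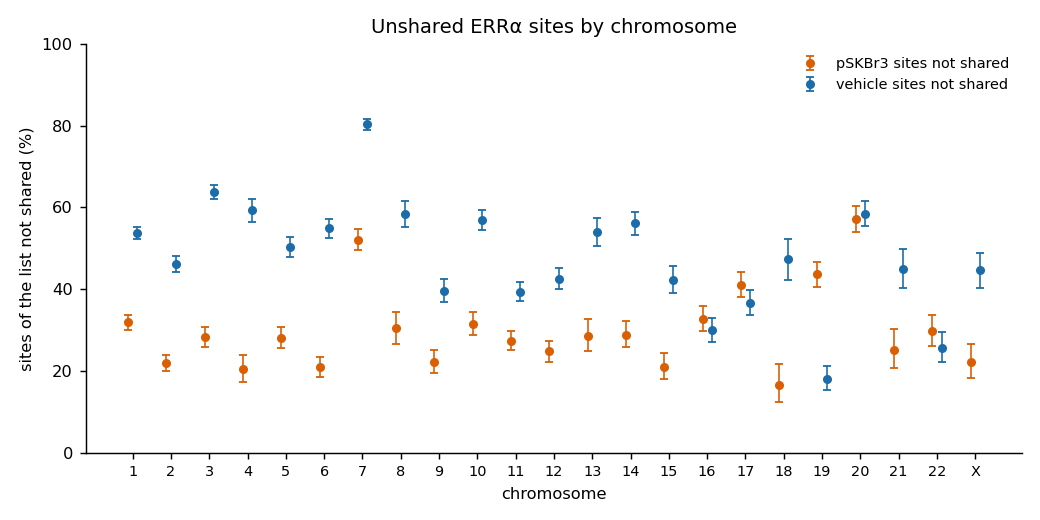
Points give, for each chromosome, the percent of pSKBr3 sites (orange) and of vehicle sites (blue) that were not shared, with 95% Wilson intervals. Vehicle sites on chromosome 7 reach 80.3% and pSKBr3 sites on chromosome 20 reach 57.2%, and on chromosome 19 the order of the lists is turned, with 43.6% for pSKBr3 and 18.0% for vehicle.

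The strongest single-list sites reflected this. Of the 100 strongest pSKBr3-only sites, 35 lay on chromosome 20, 17 on chromosome 7 and 16 on chromosome 17. Of the 100, 96 were called in LRSKBr3, 76 on HRG and 48 on EGF, and 2 held the ERRE. Over all pSKBr3-only sites, these chromosomes held 7.98%, 10.8% and 6.37%. LRSKBr3, HRG and EGF called 69.2%, 58.2% and 21.4% of that class, and 5.81% held the ERRE. The first of the 100 by score were nearest to HMGB1P1, EPB41L1, EYA2, UBE2V1, BANF2 (all on chromosome 20) and KCNMA1 (chromosome 10), each with a score of 3100. The site near HMGB1P1 spanned 17907 bp. The strongest pSKBr3-only promoters were those of STX16 (a syntaxin of the trans-Golgi, score 2874.56), ACSS2 (the cytosolic enzyme that makes acetyl-CoA from acetate, 1934.86), TP53INP2 (an autophagy factor, 1825.75), RNF139 (a ubiquitin ligase of the endoplasmic reticulum, 1611.35), DGLUCY (1273.22) and GORASP1 (a Golgi stacking protein, 1252.90). All 6 were called in LRSKBr3, and the first 3 lie on chromosome 20.

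Among the first vehicle-only sites by score were those nearest to NRDE2, SEC61G, SCIN, ETS1 and CLINT1, from 2201.45 at NRDE2 down to 1626.96 near CLINT1, and those near SEC61G and SCIN lie on chromosome 7. Of these named sites, all but that near SEC61G were called on EGF, and all on HRG and in LRSKBr3. After NRDE2, the strongest vehicle-only promoters were those of SELENOP (the selenium carrier of plasma, score 698.62), SLC1A2 (a glutamate transporter, 619.12), VAV3 (a guanine nucleotide exchange factor, 616.66), GRAMD1B (a sterol transfer protein, 592.43) and NDRG1 (a gene induced by stress and hypoxia, 570.54). Each of these promoters was called on EGF and in LRSKBr3 as well. Of the 100 strongest vehicle-only sites, 94 were called on EGF, 90 in LRSKBr3 and 80 on HRG, and 2 held the ERRE.

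Genes were assigned to a site when a start lay within 20 kb of the centre. Of 19794 protein-coding genes, 7978 had a shared site (40.3%), 2257 had pSKBr3-only sites alone (11.4%), 1566 had vehicle-only sites alone (7.91%), 450 had separate sites of both lists (2.27%) and 7543 had none (38.1%). Among the 2257 genes with pSKBr3-only sites alone, 88.6% had a peak in range in LRSKBr3, 77.9% on HRG and 30.1% on EGF. For the 1566 genes with vehicle-only sites alone the shares were 70.3%, 60.9% and 68.5%. Over all protein-coding genes they were 67.2%, 63.0% and 52.2%, and over genes with a shared site 98.9%, 96.7% and 92.7%. In LRSKBr3 and on HRG, the genes with vehicle-only sites alone were thus near the level of all genes. With the distance set to 1 kb, 17.7% of genes had a shared site, 11.0% pSKBr3-only sites alone, 2.87% vehicle-only sites alone, 0.242% separate sites of both lists and 68.2% no site. No gene count below was tested, and many of the smaller shares have intervals that hold the share of all genes.

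The metabolic genes for which ERRα is best known were bound in both states. Of 79 genes of oxidative phosphorylation, 74 had a shared site (93.7%, against 40.3% of all genes), 2 had pSKBr3-only sites alone (NDUFA5 and NDUFB10), 2 had vehicle-only sites alone (NDUFB11 and ATP5IF1) and 1 had none (NDUFB9). At 1 kb, 71 of the 79 still had a shared site (89.9%, against 17.7% of all genes). Of 26 genes of the TCA cycle and pyruvate entry, 25 had a shared site, with scores of 3100 in both lists at IDH3A, IDH2 and MPC1 (isocitrate dehydrogenases and the mitochondrial pyruvate carrier), and PDK3 had none. Glycolysis followed with 17 of 21 genes, among them GAPDH, PGK1, ALDOA and ENO1. Of 78 mitochondrial ribosomal protein genes, 59 had a shared site (75.6%, 65.1 to 83.8) and 9 pSKBr3-only sites alone (11.5%, the level of all genes), the strongest at MRPL20 (score 640.43), MRPS26 (505.42), MRPS2 (392.81) and MRPL22 (293.01).

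Fatty acid oxidation and glutathione genes were shared less often but above the background, with 13 of 20 (65%, 43.3 to 81.9) and 27 of 40 (67.5%, 52 to 79.9) against 40.3% of all genes. Their single-list shares, 5% and 7.5% pSKBr3 only and 10% and 5% vehicle only, have intervals that hold the 11.4% and 7.91% of all genes. Those of fatty acid oxidation included CPT1A, ACADM, HADHA and HADHB. Vehicle-only sites alone were found at ACSL1 (acyl-CoA synthetase, 372 bp from the start, score 184.18) and ACAA2 (mitochondrial thiolase, 186 bp, 75.58), and pSKBr3-only sites alone at ETFA (an electron transfer flavoprotein, 126.45). In the glutathione and antioxidant list, vehicle-only promoter sites stood at GCLC (the rate-limiting enzyme of glutathione synthesis, 111.79) and GSTA4 (a glutathione transferase, 123.16), and both were also called on EGF, on HRG and in LRSKBr3. A further one at MGST1 (64.06) was called on EGF but neither on HRG nor in LRSKBr3. The genes with pSKBr3-only sites alone were GGT7 (1934.86, the site of the ACSS2 promoter), GSS (glutathione synthetase, 472.89) and PRDX1 (153.50). GGT7 and GSS lie on chromosome 20. Within 1 kb, 5 genes of the list had pSKBr3-only sites alone: GSS, GGT7, PRDX1, CAT and PRDX5 (12.5%, 5.46 to 26.1, against 11.0% of all genes). The 3 with vehicle-only sites alone within 1 kb made up 7.5% (2.58 to 19.9, against 2.87%).

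For immediate early genes, the intervals of the shares below hold those of all genes. Of 38 immediate early and serum response genes, 20 had a shared site (52.6%, 37.3 to 67.5, against 40.3% of all genes). Of the list, 7 had pSKBr3-only sites alone (18.4%, 9.22 to 33.4, against 11.4% of all genes) and 5 vehicle-only sites alone (13.2%, 5.75 to 27.3, against 7.91%). The former were ACTB (score 247.17), JUND (235.84), IER2 (176.65), EGR1 (156.90), JUN (143.13), ZFP36 (122.78) and FOSB (106.69), and the latter KLF6, TPM1, EGR3, DUSP6 and CCN1 (110.90 down to 65.42). At 1 kb, the pSKBr3-only sites lay at JUN, EGR1, IER2 and NR4A1 (10.5%, against 11.0% of all genes). No gene of the list had vehicle-only sites alone (against 2.87%), and 6 had a shared site (15.8%, against 17.7%). At FOS, a subunit of AP-1, a shared site lay 15167 bp from a start. In the list of FOXO and starvation responses (30 genes), 18 had a shared site (60%, 42.3 to 75.4), among them TRIB3, BBC3, ERBB3 and ATF4. CCNG2 (a FOXO target that slows the cell cycle, 229.83) and SESN2 (a stress-induced inhibitor of mTORC1, 153.37) had vehicle-only sites alone and ASNS (asparagine synthetase, 234.61) pSKBr3-only sites alone, which is 6.67% and 3.33% of the list, not above the 7.91% and 11.4% of all genes. PDK4, the starvation-induced kinase that closes pyruvate entry into the TCA cycle, is singled out here after its values were seen. It lies on chromosome 7, where vehicle peaks were in excess. Its promoter held a vehicle-only site 187 bp from the start (score 169.71), also called on EGF, on HRG and in LRSKBr3, and a shared site 14676 bp from the start scored 274.10 in pSKBr3 and 2442.87 on vehicle.

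Promoters of cytosolic ribosomal protein genes were often called, in both states or in pSKBr3 alone. Of 91 cytosolic ribosomal protein genes, 22 had pSKBr3-only sites alone within 1 kb (24.2%, 16.5 to 33.9, against 11.0% of all genes), 4 vehicle-only sites alone (4.40%, against 2.87%) and 41 a shared site (45.1%, 35.2 to 55.3, against 17.7%), so that shared promoters were more frequent than among all genes as well. Within 20 kb, 14 had pSKBr3-only sites alone (15.4%, 9.39 to 24.2, an interval that holds the 11.4% of all genes), the strongest by score being RPS21 (662.53), RPS2 and RPL3L, which have 1 site in common with NDUFB10 (626.47), and RPL7A (508.65). Of 45 genes of DNA replication and the cell cycle, 8 had pSKBr3-only sites alone (17.8%, 9.29 to 31.3, an interval that holds the 11.4% of all genes), the strongest at MCM7 (a subunit of the replicative helicase, 731.49), RFC2 (clamp loader, 576.90), CDK4 (286.73) and CDT1 (238.07). The 3 genes with vehicle-only sites alone (6.67%, against 7.91% of all genes) were ORC1 (246.53), MCM2 (110.93) and CDC45 (65.74). MCM7 and RFC2 lie on chromosome 7, where 52.1% of pSKBr3 sites were not shared. Of 43 genes of autophagy and the lysosome, 18 had a shared site within 1 kb (41.9%, 28.4 to 56.7, against 17.7% of all genes), 9 pSKBr3-only sites alone (20.9%, 11.4 to 35.2, against 11.0%) and 1 vehicle-only sites alone (2.33%, against 2.87%). Within 20 kb, 26 genes had a shared site (60.5%, against 40.3% of all genes) and 6 pSKBr3-only sites alone (14%, 6.56 to 27.3, an interval that holds the 11.4% of all genes). The strongest of the 6 by score were SQSTM1 (the autophagy receptor p62, 104.99), ATG14 (90.58), MAP1LC3A (88.40) and ULK1 (74.04), at score percentiles of 39.9 down to 23.2. The SQSTM1 promoter site was not called on EGF, on HRG or in LRSKBr3, whereas LRSKBr3 called 88.0% of pSKBr3-only promoter sites.

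Of all protein-coding genes, 11.0% had pSKBr3-only sites alone within 1 kb and 2.87% vehicle-only sites alone. Across the 665 symbols of the 17 gene lists, 81 genes had pSKBr3-only sites alone at the promoter and 24 vehicle-only sites alone. The strongest such site of each of the 81 genes was called in LRSKBr3 at 76, on HRG at 54 and on EGF at 12. Over all pSKBr3-only promoter sites the shares were 88.0%, 71.6% and 15.9%, and 1.18% held the ERRE. Of the 81, none held the ERRE word and 4 held the core word, and their GC content ran from 43.3% to 78.6% with a median of 67.7%. Of the 24 vehicle-only promoters, 20 were called in LRSKBr3, 14 on HRG and 14 on EGF, none held the ERRE, 3 held the core word and 5 the AP-1 word, and the median GC content was 51.7%. Over all vehicle-only promoter sites the shares in these lists were 67.5%, 48.3% and 52.2%, and 3.58%, 15.1% and 5.37% held the words.

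Integrins and laminins tie cells to the matrix. Of 31 genes, none had pSKBr3-only sites alone within 20 kb (against 11.4% of all genes) and 16 had a shared site (51.6%, against 40.3%). Vehicle-only sites alone were found at 6, or 19.4% (9.19 to 36.3) against 7.91% of all genes. These were ITGA1, ITGA10, LAMA2, ITGA3, ITGA2 and LAMC3, with scores of 198.60 down to 54.02. Within 1 kb, 2 genes were pSKBr3 only (ITGAV and LAMA5) and 2 vehicle only (LAMA2 and LAMB3), each 6.45% (1.79 to 20.7), against 11.0% and 2.87% of all genes. Among 44 receptor tyrosine kinases, 19 had a shared site (43.2%, against 40.3% of all genes), 7 vehicle-only sites alone (15.9%, 7.93 to 29.4, against 7.91%) and 4 pSKBr3-only sites alone (9.09%, against 11.4%). Within 1 kb, 2 genes were in each of the single-list classes (4.55% each, 1.26 to 15.1, against 11.0% in pSKBr3 only and 2.87% on vehicle only). Vehicle-only sites alone were strongest at DDR2 (300.05), IGF1R (140.51), ERBB4 (89.85) and EPHA4 (89.80), and pSKBr3-only sites alone were found at TYRO3, NTRK3, TIE1 and ALK, the last 3 with the ERRE word. ERBB3 had a shared promoter site 171 bp from the start, scoring 2000 in pSKBr3 and 3226.07 on vehicle, and ERBB2 had no site within 20 kb of a start in either list. The sterol list (26 genes) had 15 genes with a shared site (57.7%, 38.9 to 74.5, against 40.3% of all genes), led by SREBF2. SC5D and INSIG1 were vehicle only (7.69%, against 7.91%) and HSD17B7 was pSKBr3 only (3.85%, against 11.4%). The circadian list (19 genes) had 7 with a shared site (36.8%, against 40.3% of all genes). NFIL3 and NPAS2 were vehicle only (10.5%, against 7.91%) and HLF was pSKBr3 only (5.26%, against 11.4%).

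The list of the receptor's own family and regulators is small, and its shares have intervals that hold those of all genes. Of 13 ERR genes and coregulators, ESRRA, PPARGC1B, NRIP1 and PERM1 were among the 6 with a shared site. No gene had vehicle-only sites alone within 20 kb. The 3 with pSKBr3-only sites alone (23.1%, 8.18 to 50.3, an interval that holds the 11.4% of all genes) were NCOR1 (a corepressor, 44 bp from the start, score 244.87), NCOA3 (a coactivator, 316 bp, 130.97) and NCOA2 (59.58). The promoter sites of NCOR1 and NCOA3 were called in LRSKBr3 and on neither EGF nor HRG. ESRRG, the paralogue ERRγ, had separate sites of both lists, with a vehicle-only site of score 168.35 lying 17 bp from a start. PPARGC1A (the coactivator PGC-1α), ESRRB and NCOA1 had none.

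Of the luminal genes taken as markers, KRT8, KRT18, KRT19, FOXA1, ELF3 and SPDEF had a shared site, while GATA3, TFAP2C and ERBB2 had no site in range. Within the whole luminal list (21 genes), 12 had a shared site (57.1%, 36.5 to 75.5, against 40.3% of all genes), 0 pSKBr3-only sites alone and 1 vehicle-only sites alone (11.4% and 7.91% of all genes). Within 1 kb, FOXA1 and KRT19 had pSKBr3-only sites alone (9.52% of the list, against 11.0% of all genes). At KRT8 the scores were 3100 in both lists. TFF1, an oestrogen-responsive gene of luminal cells, had no site within 20 kb in either state. These sites describe binding and not the expression of the markers.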

How the data were processed

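The authors aligned the ChIP and input reads to hg19 (GRCh37) with BWA 0.5.9 and SAMtools 0.1.18 and ran MACS for peak calling, using each input as control, with a P value cutoff of 1e-05, which equals the lowest score in the lists (50). The labels assign 1 list to both ChIP replicates and the input of each SKBr3 condition. The deposited score of each peak is the negative log10 of their P value times 10 and was ranked only within its list. The lists hold no tag counts, so the depth per sample is unknown.

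From these files, sites, distances, GC content, words and genes were computed in Python 3.11.15 with numpy 2.4.6, pandas 2.3.3, scipy 1.17.1 and pysam 0.24.0, on the GRCh37 sequence and GENCODE 44 starts lifted to GRCh37. A site's centre is that of its peak with the highest score percentile. Wilson intervals are at 95%. The steps were tested on simulated lists. With 1 list per state no test was run. The members, words and 17 gene lists were chosen with earlier results of these data known. Named genes are those nearest the 6 strongest sites of each class and of each group specific to an experiment, those nearest the 6 strongest promoter sites of each class, at most 4 members per gene list and class, ESRRA, TFF1 and the luminal markers. Genes named beyond this rule, such as PDK4 and the complete small groups, were chosen after their values were seen. Alternatives concerned the overlap rule, P threshold, list size, chromosome 7, promoter peaks, windows, words and gene distance. A few named genes and sequences are not reported here.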

Additional observations from a re-analysis of the deposited data

How the results depend on the processing

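No paired analysis was possible because the replicate libraries of each state are pooled in 1 list, and for the same reason no replicate could be left out. The depth is unknown, and a site missing from a list may lie just under its P cutoff. The percent of pSKBr3 and of vehicle peaks shared was 61.5 and 43.1 when at least 50% of both peaks had to overlap, 61.6 and 43.1 with centres within 500 bp, 41.2 and 28.9 with centres within 100 bp, 73.0 and 49.5 at P at most 1e-10, 61.3 and 59.6 with lists of equal size, 70.7 and 50.7 without chromosome 7, and 71.6 and 42.4 without peaks within 1 kb of a start. With centres within 100 bp there were 9294 shared and 13245 pSKBr3-only sites. At P at most 1e-10 there were 10003 shared, 3791 pSKBr3-only and 10216 vehicle-only sites, and with equal sizes 9112 vehicle-only sites. The promoter percent of pSKBr3-only minus vehicle-only sites (26.7) was 38.5 at P at most 1e-10, 23.8 with promoters of 500 bp and 28.0 with promoters of 2 kb. The difference in mean GC percent (13.4) was 16.0 at P at most 1e-10, 13.0 without chromosome 7, 9.07 without peaks within 1 kb of a start and 12.3 over whole peaks. The difference in ERRE percent (−0.234) turned to 0.654 with equal sizes and to 1.78 without peaks within 1 kb of a start, and was −1.78 at P at most 1e-10 and −2.50 for the ERR core word. The difference in AP-1 percent (−2.61) was −4.12 at P at most 1e-10, −1.69 without peaks within 1 kb of a start and −4.61 within 250 bp. The pSKBr3-only sites called in LRSKBr3, on HRG and on EGF made up 82.1%, 65.6% and 22.9% at P at most 1e-10 and 59.2%, 45.7% and 17.5% by centres within 500 bp; without chromosome 7, LRSKBr3 gave 70.5% and EGF 22.4%. For vehicle-only sites on EGF, on HRG and in LRSKBr3 the shares were 54.9%, 35.7% and 50.4% at P at most 1e-10, 43.9%, 26.2% and 39.1% by centres within 500 bp, and 54.4%, 33.7% and 48.6% without chromosome 7. Genes with vehicle-only sites alone numbered 889 with equal sizes and 568 within 1 kb, and genes with a shared site 3502 within 1 kb. Chromosome 7 held 9.10% of pSKBr3-only and 11.6% of vehicle-only sites at P at most 1e-10, and 9.59% and 14.7% with equal sizes. The 36 other values of these quantities stayed within their counting interval, or within 1.5 times for counts. For the values that moved with fewer or stronger peaks or another distance, the alternative itself changes what is counted, and further causes were not tested.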
